A study of Rattus norvegicus with 2 samples.

Results

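The 9 genes described here are widely used as astrocyte markers or are strongly associated with astrocytes: Glul, Aldoc, S100b, Gja1, Aqp4, Aldh1l1, Agt, Ntsr2 and Gjb6. They were taken by symbol from a table of 17202 genes measured by bulk RNA sequencing in primary cultures of rat oligodendrocyte precursor cells (OPCs), and all 9 were listed. The culture named Aβ in the labels came from wild-type rat brain and received amyloid-beta, the peptide deposited in Alzheimer's disease plaques, at 1 µM for 2 days before collection. The culture named DMSO was also wild-type and received the solvent. The treatment protocol is worded alike for both and speaks of Aβ only, so the duration of the DMSO treatment rests on that shared text. Both cultures grew in OGM medium, and the donors' age is unclear, since the labels speak of adult OPCs, of developing rats and of an unexplained P1. Each condition had 1 library, so no difference has a replicate check, no test was possible and no p-value is given. The question put by the comparison is whether exposure of an OPC culture to Aβ alters its transcripts.

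Astrocytes and oligodendrocytes are both glia that arise from neural progenitors. Astrocytes take up transmitter glutamate and potassium, regulate water at the vessel wall, and are joined into networks by gap junctions. The genes of these functions serve as cell type markers, but several are not exclusive to astrocytes: S100b and Glul are also known in cells of the oligodendrocyte lineage. Cultured OPCs can themselves turn to an astrocyte-like state, and primary OPC preparations commonly carry astrocytes along. A bulk library cannot assign a transcript to a cell, and fewer cells of a type cannot be told apart from less RNA per cell.

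The libraries held 15117102 estimated counts with Aβ and 15019416 with DMSO. All 9 genes had whole counts in both. Genes reaching 1 CPM (counts per 1000000) in either library are called measured, which 13505 genes and 8 of the 9 were. Gjb6 was not. Levels between genes are compared as TPM (transcript copies scaled to a fixed total), which divides by transcript length. Ratios are Aβ over DMSO, from counts divided by the effective library size, with exact 95% intervals that cover counting error only. Those intervals are narrower than the scatter between the libraries: over 10441 genes with whole counts of at least 50 in each, squared log ratios were on average 1.86 times the counting variance.

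The stretches before annotated transcription starts are shown for Glul, the most abundant of the 9, and for the connexins Gja1 and Gjb6, which lie at opposite ends of the levels within a gene family. Sequences are from RefSeq, build GRCr8, 250 bases ending at the base before the start, 5′ to 3′ on the gene's strand. Where a gene had more than 1 annotated start, the first listed window with most matches is shown. Capitals mark matches to any of 6 motifs on either strand. Of general promoter elements, the GC box that Sp1 family proteins bind was searched as GGGCGG. The CCAAT box was searched by the letters of its name, and the TATA box, where the general machinery assembles, as TATAAA. Of glial regulators, the motif of nuclear factor I (NFI) proteins was searched as TTGGC. The motif of STAT proteins was searched as TTCNNNGAA. The motif of SOX proteins was searched as ACAAT.
Glul, chr13:68575816-68576065, plus strand: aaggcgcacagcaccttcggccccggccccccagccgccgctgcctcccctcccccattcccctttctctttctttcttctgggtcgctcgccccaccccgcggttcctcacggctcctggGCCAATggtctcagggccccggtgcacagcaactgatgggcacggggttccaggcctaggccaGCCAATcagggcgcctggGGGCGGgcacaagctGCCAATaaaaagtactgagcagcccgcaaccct
Gja1, chr20:36302314-36302563, plus strand: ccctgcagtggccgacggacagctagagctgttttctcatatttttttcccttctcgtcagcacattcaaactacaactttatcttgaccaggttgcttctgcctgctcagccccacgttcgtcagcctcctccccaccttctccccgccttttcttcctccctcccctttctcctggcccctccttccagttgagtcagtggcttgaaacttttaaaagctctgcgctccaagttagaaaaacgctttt
Gjb6, chr15:35410139-35410388, minus strand: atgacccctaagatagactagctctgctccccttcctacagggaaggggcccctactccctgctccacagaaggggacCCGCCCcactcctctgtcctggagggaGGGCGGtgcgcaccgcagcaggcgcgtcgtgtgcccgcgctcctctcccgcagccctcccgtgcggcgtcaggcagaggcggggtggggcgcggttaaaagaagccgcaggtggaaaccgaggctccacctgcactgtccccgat

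The Glul window held 3 CCAAT boxes, each overlapping an NFI motif since GCCAAT contains both, and 1 GC box. The Gjb6 window held 2 GC boxes and 19 CG dinucleotides. The Gja1 window held 8 CG dinucleotides and no match to the 6 motifs, which says only that these letters are not in this window. Among all 33469 windows of this length, 34.0% held a CCAAT box, 30.5% a GC box, 40.3% an NFI motif, 30.0% a SOX motif, 12.9% a TATA box and 7.67% a STAT motif. Windows of 7 of the 9 genes were searched, 9 windows in all. A STAT motif occurred in Ntsr2 alone, as TTCCCAGAA, between 54 and 46 bases before the start, and a SOX motif in S100b alone. A TATA box occurred in none of the 9. S100b had 3 CCAAT boxes, of which 1 overlapped the SOX motif and another 1 of its 2 NFI motifs, Aldh1l1 had 2 GC boxes and 2 CCAAT boxes, and Aldoc had 1 GC box. These matches are descriptions of sequence, not binding sites.

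The 9 genes were expressed over a range from the most abundant few percent of genes to almost nothing. Their order by TPM was identical in both libraries for all 9: Glul, Aldoc, S100b, Gja1, Aqp4, Aldh1l1, Agt, Ntsr2 and Gjb6. The first 3 made up 86.8% of the summed TPM of the set with Aβ (1588 TPM) and 85.8% with DMSO (1493 TPM). The median TPM of all measured genes was 19.96 with Aβ and 19.37 with DMSO, so Agt, Ntsr2 and Gjb6 lay below the typical measured gene and the other 6 above it. The closest neighbours in the order were Gja1 and Aqp4, with Gja1 1.09 times as high as Aqp4 in the Aβ library and 1.08 times in the DMSO library. Their counting intervals did not overlap in either library, but whether that gap exceeds the spread between cultures cannot be said from 1 library each.

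**Figure D1:**
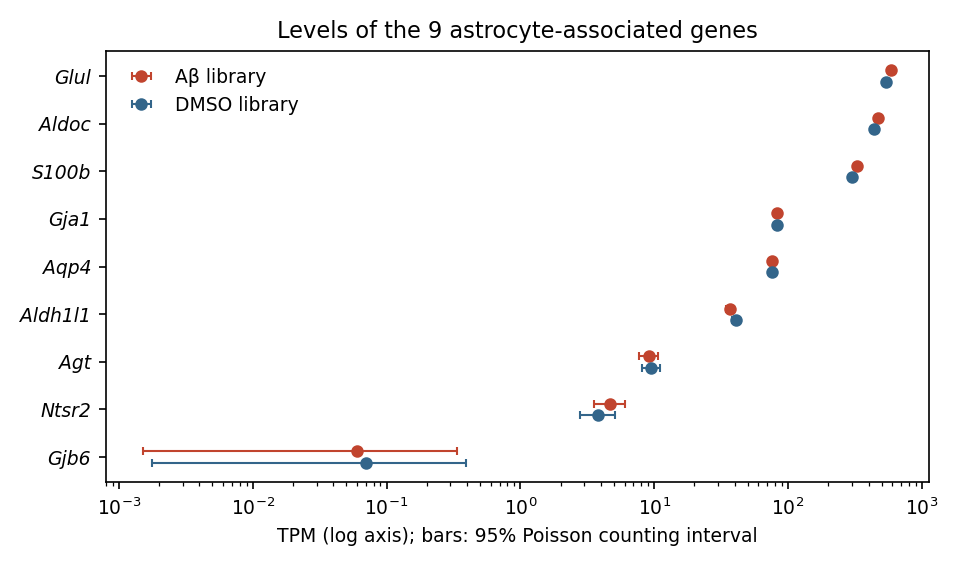
TPM (log axis) of each of the 9 genes in the Aβ library (red) and the DMSO library (blue), with bars for the 95% Poisson counting interval. The points of a gene nearly coincide in the 2 libraries, while the genes spread from 585 TPM for Glul with Aβ to 0.06 TPM for Gjb6.

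Among the metabolic enzymes, Glul (gene identifier 24957) encodes glutamine synthetase, which turns glutamate and ammonia into glutamine. It had 13302 counts with Aβ and 12438 with DMSO, or 585 TPM and 537 TPM, and ranked 219 and 241 among the listed genes. Glul was slightly higher with Aβ, with a ratio of 1.06 (1.04 to 1.09). Aldoc (24191), the brain isoform of the glycolytic enzyme aldolase, had 6242 and 6000 counts, or 466 TPM and 441 TPM. Its ratio of 1.03 had an interval that includes 1 (0.996 to 1.07). Aldh1l1 (64392) encodes 10-formyltetrahydrofolate dehydrogenase, a folate enzyme whose promoter is commonly used to label astrocytes. It was the gene of the set lowest relative to DMSO, with 978 counts against 1099, or 37.0 TPM against 40.8 TPM. The ratio was 0.883 (0.809 to 0.963).

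Among the membrane proteins, Gja1 (24392) encodes connexin 43, the main gap junction protein of astrocytes, and Aqp4 (25293) the water channel of their endfeet. Gja1 had 2473 counts with Aβ and 2504 with DMSO, or 82.8 TPM and 82.2 TPM. Its count ratio of 0.980 (0.926 to 1.04) lay just below 1 and its TPM ratio of 1.01 just above. Aqp4 had 3783 and 3853 counts, or 76.2 TPM and 76.1 TPM. Its count ratio was 0.974 (0.931 to 1.02) and its TPM ratio 1.00. The side of 1 on which these genes fell changed with the unit. Both TPM ratios nevertheless lay below the median TPM ratio of all measured genes, 1.03.

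Gjb6 (84403), which encodes the other astrocyte connexin, connexin 30, was close to absent, with 1 count in each library. A single count allows a Poisson interval of 0.0253 to 5.57 counts, or at most 0.334 TPM with Aβ and 0.390 TPM with DMSO as scaled from the rounded TPM. Gja1 was 1379 times as high as Gjb6 per length with Aβ (counting interval 247 to 54503) and 1175 times with DMSO (211 to 46411). Both quotients rest on a rounded Gjb6 TPM, 0.06 with Aβ and 0.07 with DMSO, so the gap between them is not a difference between libraries. No ratio between the libraries can be read for Gjb6. As background, connexin 30 is known to appear later in astrocyte maturation than connexin 43.

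Among the signalling genes, S100b (25742), a calcium-binding protein that is also secreted, had 4049 counts with Aβ and 3801 with DMSO, or 327 TPM and 302 TPM. S100b was slightly higher with Aβ, with a ratio of 1.06 (1.01 to 1.10). Agt (24179) encodes angiotensinogen, the precursor of angiotensin peptides, which astrocytes make in the brain. It had 157 and 165 counts, or 9.13 TPM and 9.46 TPM, with a ratio of 0.944 (0.754 to 1.18). Ntsr2 (64636), a neurotensin receptor, had 57 and 47 counts, or 4.68 TPM and 3.82 TPM. Its ratio of 1.203 was the furthest above 1 in the set, but the interval of 0.803 to 1.81 spans both directions, and at this depth a difference was not detectable.

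**Figure D2:**
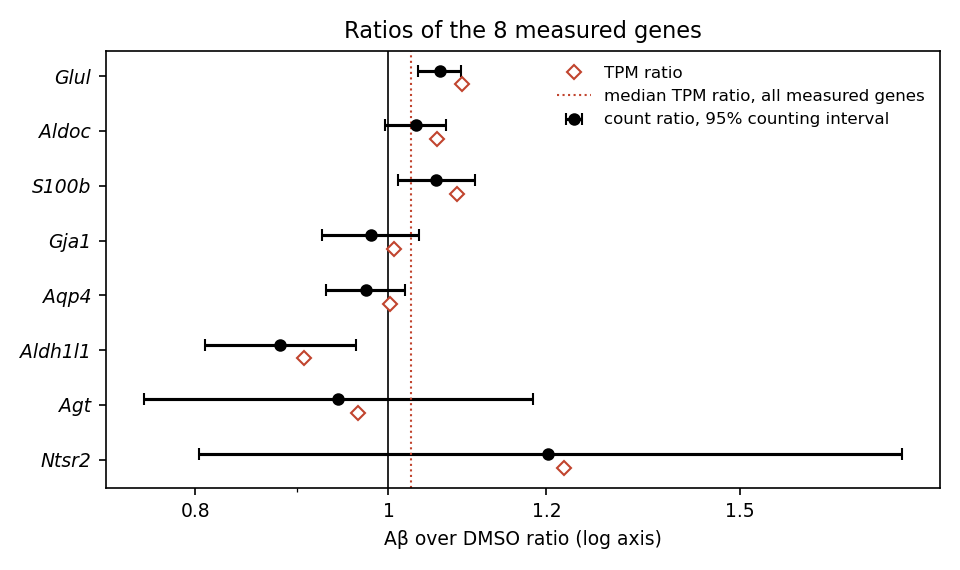
Aβ over DMSO ratio (log axis) of the 8 measured genes from counts, with the 95% counting interval (black), and from TPM (open red diamonds), beside the median TPM ratio of all measured genes (dotted line, 1.03). The intervals of Glul, S100b and Aldh1l1 leave out 1, and that of Ntsr2 is the widest.

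The differences of the 8 measured genes were set beside those of all measured genes. A difference was called where it was at least 2-fold and its counting interval left out 1, which held for 0 of the 8 and for 0.674% of all measured genes (0.267% higher with Aβ and 0.407% lower). At shares this low, 0 of 8 does not tell the set from other genes. Of the 11726 measured genes with whole counts, as all 8 have, 0.102% were called (12 genes against 91 of all measured genes, and 24 with a minimum of 10 CPM). The interval alone left out 1 for 3 of the 8, for 13.4% of measured genes and for 11.8% of those with whole counts. That share rises with depth, to 19.0% of genes at 50 CPM or more (9.33% higher with Aβ and 9.68% lower), a level that 6 of the 8 reached. The count of 3 was not tested against these shares. Of the 3, Glul and S100b were higher with Aβ (6.49% of measured genes had such an interval) and Aldh1l1 was lower (6.88%). The median log2 ratio of the 8 was 0.0078, beside -0.00078 for all measured genes, and 4 of the 8 lay on each side of a ratio of 1. Intervals lay wholly within 1.5-fold for 7 of the 8, all but Ntsr2, and for 80.1% of measured genes. They lay wholly within 1.2-fold for 5 of the 8 and for 48.3% of measured genes. The width of an interval depends on depth, and 50 CPM was reached by 6 of the 8 but by 5143 of 13505 measured genes. The shares within 1.5-fold and 1.2-fold were not matched for depth.

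Since intervals count reads only, the 3 genes were also placed among genes of similar depth. Over the 3425 genes with whole counts of at least 1000 in each library, the log2 ratio had an SD of 0.069, while counting gives a median SD of 0.048. Of these genes, 20.8% lay at least as far from a ratio of 1 as Glul and 24.5% at least as far as S100b. Differences of their size were thus common between these libraries. Aldh1l1 lay further out: of 4226 genes with whole counts between 500 and 2000, 3.79% were at least as far from 1 and 1.92% were at or below its ratio. This band was set after the values were seen. Summed over the 9 genes, counts came to 31042 with Aβ and 29908 with DMSO (ratio 1.03, 1.01 to 1.05), a sum that Glul dominates.

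**Figure D3:**
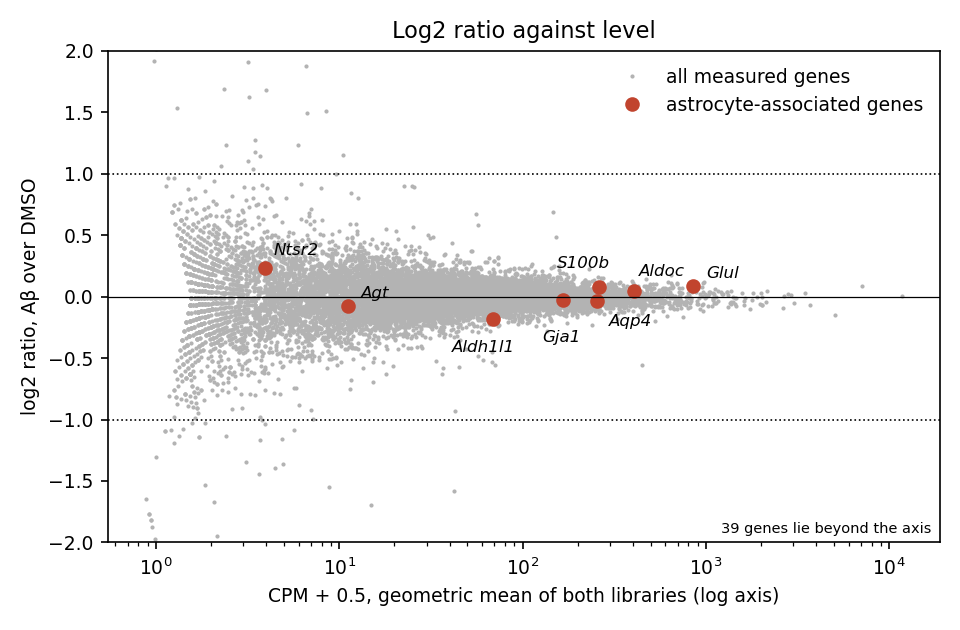
Log2 ratio (Aβ over DMSO, CPM + 0.5) of each measured gene (grey) against its level (geometric mean of CPM + 0.5 in both libraries, log axis), with the 8 measured astrocyte-associated genes in red and dotted lines at 2-fold. The red points lie inside the grey cloud at every level, and 39 genes lie beyond the axis.

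Other astrocyte genes were also expressed in both cultures. All 30 genes of a further list were measured, at a median of 46.1 TPM with Aβ and 40.6 TPM with DMSO. The most abundant were Fabp7, a fatty acid binding protein of glial progenitors (12783 TPM and 13532 TPM), the lipid carrier Apoe (1313 TPM and 1225 TPM) and Gfap, the astrocyte intermediate filament (839 TPM and 793 TPM). The glutamate transporter Slc1a3 stood at 392 TPM and 373 TPM and the other astrocyte transporter, Slc1a2, at 11.1 TPM and 9.48 TPM. Slc1a3 was 35.4 times as high as Slc1a2 with Aβ and 39.3 times with DMSO. Sox9, a transcription factor of gliogenesis, was at 34.7 TPM in both. Of the 30, 18 were above a ratio of 1 and 12 below. Their median log2 ratio was 0.029. Intervals lay wholly above 1 for 9 and wholly below for 2, beside 6.49% and 6.88% of all measured genes. At 50 CPM or more these shares were 9.33% and 9.68%, and the counts of 9 and 2 were not tested against them. Of the 30, 0 were called, beside 0.674%. Furthest from 1 were Chrdl1, a BMP antagonist, at 0.606 (0.381 to 0.952) from 33 and 54 counts, the zinc transporter Slc39a12 at 0.823 (0.608 to 1.11) and Nfib, a nuclear factor I protein, at 1.18 (1.11 to 1.26).

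Markers of the cell the culture is named for were present in both libraries. All 11 listed OPC markers were measured, at a median of 117 TPM with Aβ and 115 TPM with DMSO, beside 76.2 TPM and 76.1 TPM for the 9 astrocyte-associated genes. Olig1, a transcription factor of the lineage, stood at 850 TPM and 841 TPM, Olig2 at 216 TPM and 209 TPM, Sox10 at 117 TPM and 115 TPM, and Pdgfra at 228 TPM and 206 TPM. Glul was 2.57 times as high as Pdgfra with Aβ and 2.61 times with DMSO, while Gja1 was 0.363 and 0.400 times as high and Aqp4 0.335 and 0.370 times. Pdgfra itself was at a ratio of 1.08 (1.05 to 1.10) with fractional counts, against 1.06 for Glul. Mature oligodendrocyte markers summed to 605 TPM and 567 TPM over 10 genes, of which the myelin enzyme Cnp made up 524 TPM and 487 TPM, and their medians were 10.4 TPM and 11.2 TPM.

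Genes of other cells were mostly low. Neuronal markers were all measured, at a median of 16.6 TPM with Aβ and 16.04 TPM with DMSO, below the typical measured gene. They summed to 629 TPM and 601 TPM over 10 genes, and most of this came from Tubb3, a neuronal tubulin (372 TPM and 353 TPM), and Map2, a dendritic protein (151 TPM and 142 TPM). Syt1 (30.0 TPM and 28.5 TPM), Gad1 (24.5 TPM and 25.2 TPM) and Snap25 (22.8 TPM and 22.3 TPM) also lay above the typical measured gene. The remaining neuronal markers lay below it. Microglial markers summed to 11.8 TPM and 13.2 TPM over 10 genes, endothelial to 1.13 TPM and 1.21 TPM over 5, fibroblast and pericyte to 5.54 TPM and 5.14 TPM over 7, and ependymal to 7.75 TPM and 9.76 TPM over 5. Schwann cell markers summed to 22.1 TPM and 28.3 TPM, mainly from Pmp2, a lipid-binding protein, which was at 0.730 (0.598 to 0.889). The part of any of these cells in the values of the 9 genes was not tested. The ratio of summed counts was 1.03 for neuronal markers (1.01 to 1.05) and 1.03 for OPC markers (1.02 to 1.04).

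**Figure D4:**
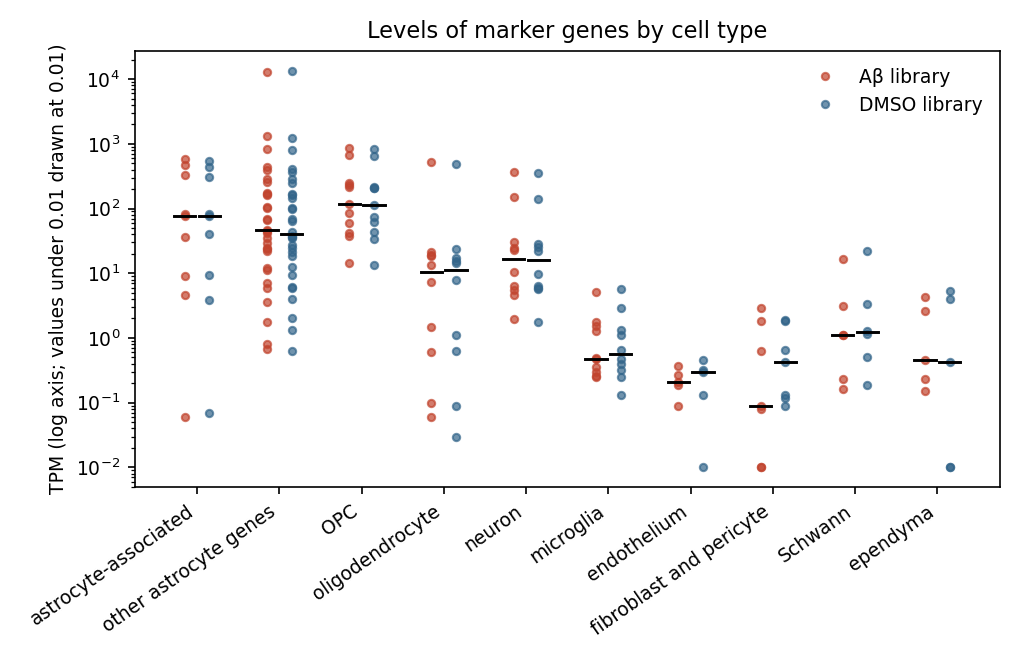
TPM (log axis, values under 0.01 drawn at 0.01) of each listed marker gene by cell type in the Aβ library (red) and the DMSO library (blue), with black bars at the medians. The medians of the astrocyte-associated and OPC genes, 76.2 TPM and 117 TPM with Aβ, lie highest, while Agt, Ntsr2 and Gjb6 lie far below the median of their list. With Aβ the microglial, endothelial and fibroblast and pericyte medians are 0.48 TPM, 0.21 TPM and 0.09 TPM. Gjb6, at 0.06 TPM, lies below these medians too.

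The gene family or pathway around each of the 9 was then described. Glul was the most abundant of 16 measured genes of the glutamate and glutamine cycle, followed by Slc1a3 and Glud1, glutamate dehydrogenase (302 TPM and 285 TPM). Of the 16, 7 were above a ratio of 1, 9 were below, and the median log2 ratio was -0.0043, which was 0.034 with TPM. Gls2, a glutaminase, had 83 and 98 counts (0.840, 0.619 to 1.14), and the transporter Slc1a5 stood at 0.924 (0.786 to 1.08).

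Aldoc was abundant together with Aldoa, the ubiquitous isoform, which stood at 647 TPM with Aβ and 669 TPM with DMSO. Aldoc was 0.721 times as high as Aldoa with Aβ and 0.659 times with DMSO. Aldoa was slightly lower with Aβ (0.945, 0.916 to 0.975). Of 13 measured glycolytic genes, 8 were above a ratio of 1, 5 were below, and the median log2 ratio was 0.036. Eno1, enolase, was the most abundant (1587 TPM and 1626 TPM, ratio 0.952, 0.935 to 0.969), and Eno2, the neuronal enolase, was at 1.197 (1.04 to 1.38) with fractional counts.

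Aldh1l1 lay among folate enzymes of which most were marginally below 1. Of 24 measured, 4 were above and 20 below, beside 49.7% of all measured genes above. The median log2 ratio was -0.023. Intervals lay wholly below 1 for 2 (Aldh1l1 and Gcsh), beside 6.88% of all measured genes, and wholly above for 0, beside 6.49%. With TPM the median was 0.015, beside 0.037 for all measured genes. With TPM divided by the median TPM ratio of all measured genes it was -0.023, so the list lay marginally below the typical gene in either unit. Gcsh, of the glycine cleavage system, was the most abundant (168 TPM and 177 TPM, ratio 0.926, 0.866 to 0.991). Shmt1, a serine hydroxymethyltransferase, stood at 0.870 (0.751 to 1.01) and Mthfs at 1.15 (0.945 to 1.403). Aldh1l2, the mitochondrial counterpart of Aldh1l1, named as its relative after its values were seen, had 386 and 408 counts (0.938, 0.814 to 1.08). Aldh1l1 was 2.83 times as high as Aldh1l2 with Aβ and 3.01 times with DMSO.

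Gja1 was the most abundant connexin, 2.61 times as high as Gjc1 (connexin 45) with Aβ and 2.67 times with DMSO. Of 17 listed connexin, pannexin and scaffold genes 9 were measured, with 3 above a ratio of 1 and 6 below; the median log2 ratio was -0.030 (0.0094 with TPM). Intervals left out 1 for 0 of the 9. Tjp1, a scaffold that binds connexin 43, stood at 77.0 TPM and 72.6 TPM, with a ratio of 1.03 (0.993 to 1.07). Gjd2, the neuronal connexin, was the furthest below 1 (0.529, 0.269 to 1.00), from 16 and 30 counts. Panx2 was at 0.824 (0.624 to 1.09).

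Genes that anchor or accompany Aqp4 at the endfoot were present in the culture. A list of these and of aquaporins, Aqp4 included, held 15 measured genes. Of them, 7 were above a ratio of 1, 8 were below, and the median log2 ratio was -0.030 (0.0046 with TPM). Without Aqp4 the median log2 ratio was -0.0016. Mlc1, a membrane protein of astrocyte junctions, stood at 259 TPM and 246 TPM, its partner Hepacam at 102 TPM and 101 TPM, and Dag1, dystroglycan, at 154 TPM and 143 TPM. Within this complex the paralogs dystrophin and utrophin lay on opposite sides of 1. Dmd was at 0.871 (0.810 to 0.937) from 1389 and 1582 counts, and Utrn at 1.24 (1.11 to 1.38) from 723 and 579 counts. The gap was smaller by TPM, with ratios of 0.910 for Dmd and 1.08 for Utrn. The median TPM ratio of all measured genes was 1.03, so the size of the Utrn difference depends on the unit. Aqp4 was 15.8 times as high as Aqp1, another aquaporin, with Aβ and 14.4 times with DMSO. Aqp11 had 26 and 32 counts.

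Genes of the pathways around Agt and Ntsr2 ranged widely in level. In the renin-angiotensin system, 10 of 14 listed genes were measured, 4 above a ratio of 1 and 6 below, and intervals left out 1 for 0. The receptor Agtr1a, named after its values were seen, had 31 and 35 counts. The protease Ctsd was the most abundant (226 TPM and 221 TPM, ratio 0.999, 0.956 to 1.04), and Atp6ap2, the prorenin receptor, had 75.1 TPM and 67.8 TPM (1.08, 0.970 to 1.21). For neurotensin, the peptide Nts had 4 counts in each library. Ntsr1, the other G protein-coupled receptor, had 123 and 137 counts (0.891, 0.692 to 1.14), so that Ntsr2 was 1.46 times as high as Ntsr1 per length with Aβ and 1.09 times with DMSO. The sorting receptors Sort1 and Sorl1 stood at 1.06 (1.01 to 1.11) and 1.09 (0.877 to 1.35), the latter with fractional counts.

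S100b differed in side from most of its relatives. Of 9 measured genes in this list, S100b and S100a13 were above a ratio of 1 and 7 were below, and the median log2 ratio was -0.11. S100a4 and S100a10 were the furthest with intervals below 1, at 0.821 (0.736 to 0.916) and 0.860 (0.814 to 0.908). S100b was 0.361 times as high as S100a10 with Aβ and 0.289 times with DMSO. Ager, a receptor for S100b and for Aβ, had 43 and 51 counts (0.836, 0.544 to 1.28). Transcripts of these relatives are short, and among well-expressed genes with whole counts the 1148 with the shortest transcripts had a median log2 ratio of -0.022 and the 1148 with the longest 0.0099. The part of length in these values was not tested.

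Genes of the reactive astrocyte state lay below a ratio of 1 more often than above. Of 20 measured, 15 were below a ratio of 1 and 5 above, while 49.7% of all measured genes were above. The median log2 ratio was -0.14, against -0.00078 for all measured genes. Intervals lay wholly below 1 for 6 and wholly above for 3, beside 6.88% and 6.49% of all measured genes and 9.68% and 9.33% of those at 50 CPM or more. None were called (0 of 20, beside 0.674%). Vim, vimentin, was at 0.8997 (0.891 to 0.909) from 72945 and 80416 counts, S100a10 at the value above and Cd109 at 0.745 (0.617 to 0.899). Gfap was at 1.03 (1.01 to 1.05), the complement gene C3 at 1.31 (0.913 to 1.88) and Serpina3n at 0.753 (0.489 to 1.15). The 9 astrocyte-associated genes share no member with this list.

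Regulators of gliogenesis were more often above a ratio of 1, with 13 of 19 above and 6 below, beside 49.7% of all measured genes above. The median log2 ratio was 0.087. Intervals lay wholly above 1 for 7 and wholly below for 0, beside 6.49% and 6.88% of all measured genes and 9.33% and 9.68% of those at 50 CPM or more. Beside Nfib, the furthest were Lifr, a receptor of the LIF family that drives astrocyte differentiation, at 1.21 (1.03 to 1.42), and the Notch target Hes1 at 0.823 (0.642 to 1.05). Stat3, which acts downstream of such receptors, was at 1.04 (1.01 to 1.08) and Id3 at 0.964 (0.890 to 1.04). No test sets these lists apart from other genes. Some genes stand in more than 1 list, so the lists are not independent. Stat3 is in the reactive and the gliogenic list, and Nfib in the gliogenic list and that of other astrocyte genes.

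**Figure D5:**
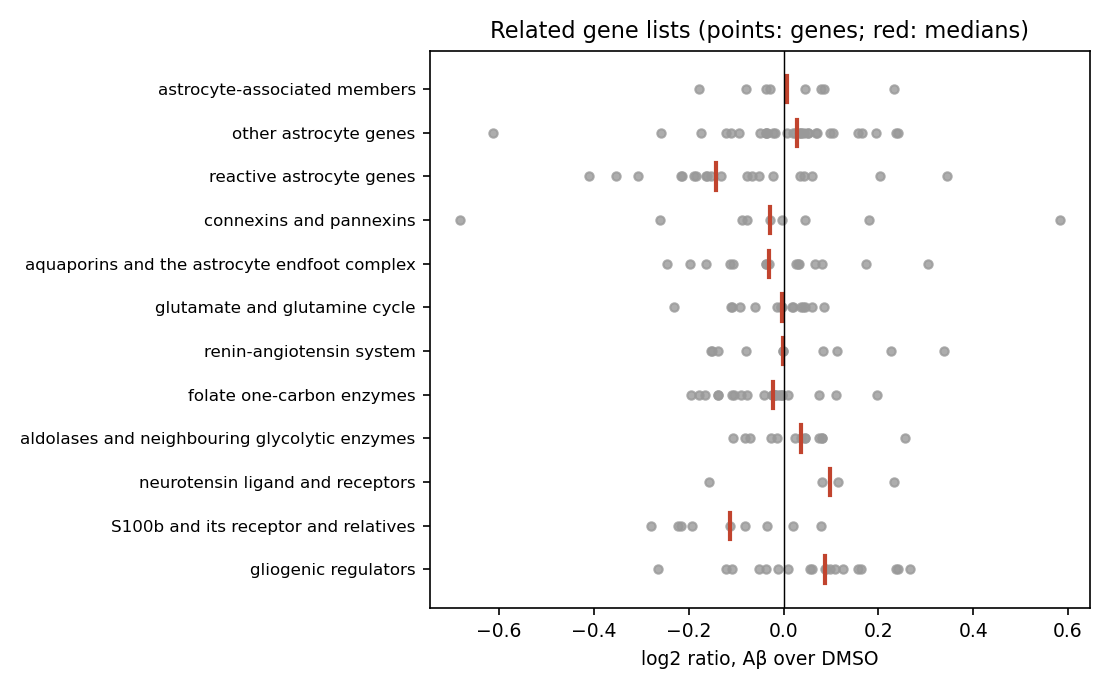
Log2 ratio (Aβ over DMSO) of each measured gene in the list of 9 and in 11 related lists (grey points), with red bars at the list medians. The medians run from -0.14 for reactive astrocyte genes to 0.098 for the neurotensin genes, and that of the 8 measured astrocyte-associated genes is 0.0078.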

How the data were processed

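Bulk RNA sequencing of 2 rat OPC cultures, 1 library per treatment recorded in the labels, was analysed from 1 deposited table. The submitters' processing notes name Bowtie2 and Rnor_6.0; the Bowtie2 version, quantifier, annotation release and strand setting are not given in those notes, the labels or the file headers. Per the file headers the authors gave estimated counts (expected counts), TPM, FPKM and a normalized read count. The authors' FPKM differed from TPM by 1 constant per library (1.42 for Aβ, 1.39 for DMSO), so TPM ratios run higher (median of measured genes 1.03). The normalized read count, a signal deposited by the authors, equalled the count rounded up over a constant and was not used.

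Counts were rounded and scaled by TMM (edgeR 4.0.16, R 4.3.3). Log2 ratios used a pseudocount of 0.5 CPM, which understates differences of low genes; intervals were exact Clopper-Pearson, conditional on both counts (scipy 1.17.1). A gene at 0 counts was set against 3 counts. The ratio and interval code was tested on simulated counts with counting error alone. That test does not cover the larger scatter between these 2 libraries. The text names all 9 genes, up to 3 most abundant and 3 furthest per list, small lists whole and lineage reference genes; some genes this rule takes are not reported here. Others are marked or named as the relative of a member. Members and lists were chosen with earlier results of these data known. Alternatives covered library scaling, TPM or FPKM, pseudocount, filter, fold limit, interval level and whole counts. Identifiers of all 9 carried the same symbol in RefSeq (GRCr8), which gave the promoter sequences; Agt had no entry, and that of Aqp4 was not used.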

Additional observations from a re-analysis of the deposited data

How the results depend on the processing

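Over the alternatives run, 0 of the 8 measured genes were called under any of them, the limit of 1.5-fold included. The number of all measured genes called, 91, was 51 with a pseudocount of 5 CPM, 24 with a filter of 10 CPM, 234 with a limit of 1.5-fold and 12 with whole counts only. The log2 ratio of Glul, 0.085, was 0.12 with TPM in place of CPM, above its counting interval, and 0.085 with TPM divided by the median TPM ratio of all measured genes, an alternative chosen after seeing the data. With uncentred TPM the log2 ratios of Gja1 and Aqp4 changed sign, to 0.0094 and 0.0026, within their counting intervals; the other measured genes kept their side of 0 under each alternative. The median of the 8 lay between -0.030 (filter of 10 CPM, which leaves out Ntsr2) and 0.045 (TPM), and list medians were taken as moved only beyond the medians of their members' interval limits, which none was. For lists of low genes these limits are wide and say little of stability. The endothelial median went from -0.19 to 0.15 with no filter on level. That of Schwann cell markers went from -0.14 to -0.44 with a filter of 10 CPM. No paired analysis was possible because each group has 1 library and no test was run. Depth limits Ntsr2, Agt and above all Gjb6, and no library could be left out.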
